A study of Mus musculus with 12 samples.

Results

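Cyp4a10, Cyp4a12a, Cyp4a12b, Cyp4a14, Cyp4a31, Cyp4a32, Cyp4f13, Cyp4f14, Cyp4f15 and Cyp4v3 are the fatty acid omega-hydroxylases of the cytochrome P450 4 family that are described here in mouse liver with and without Yap1. They were chosen by name, as the rows of the deposited expression table that carry these 10 symbols, out of 25676 genes in the table. All 10 passed the filter on low values used for testing. The study measured RNA of whole liver in 12 mice on a C57BL/6 background, 3 to 4 months old. There were 3 wild-type males, 3 wild-type females, 3 Foxa3-Cre YAP1 KO males and 3 Foxa3-Cre YAP1 KO females, called WT and KO below, and no treatment is named for any group. Foxa3-Cre acts in the embryonic gut endoderm, from which hepatocytes and bile duct cells both arise. By this design liver cells of other origin should keep Yap1, but Yap1 was not measured by cell type here. The labels name no allele for the WT mice. Each library is labelled as 1 mouse, and mice are numbered 1 to 3 within a group in order of deposition only.

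Enzymes of the CYP4 family sit in the endoplasmic reticulum and add a hydroxyl group to the last carbon of fatty acids and eicosanoids. Alcohol and aldehyde dehydrogenases turn the product into a dicarboxylic acid, which peroxisomes shorten. Liver and kidney are main sites of Cyp4a expression in the mouse. Cyp4a10 and Cyp4a14 are textbook targets of PPAR-alpha, the nuclear receptor that fatty acids and fibrate drugs activate, and rise in fasting. Cyp4a12a and Cyp4a12b are androgen-dependent genes of male mice, and Cyp4a12a makes the vasoactive lipid 20-HETE from arachidonic acid.

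Values are TPM (transcript abundance scaled for gene length, so that levels of different genes can be compared), and each library sums to 1000000. Differences are given as log2(TPM + 1), which understates changes of low genes, with adjusted p-values from limma over 12278 tested genes and a threshold of 0.05. Yap1 was 23.0 to 34.9 TPM in WT and 0.994 to 3.11 TPM in KO livers, a log2 difference of -3.36 (exact permutation test within sex, two-sided p = 0.005, the smallest this design allows). The KO libraries were shifted as a whole. The median tested gene was 0.35 higher in KO on the log2 scale (0.44 in males, 0.27 in females), and after median-of-ratios rescaling of the libraries it was -0.04. The share of called genes that were higher in KO went from 91.2% to 52.8% with that rescaling, so rescaled differences are given beside the deposited ones where they change a call or move a called value by over 1.5 times, and for many others. Summed hepatocyte markers (10 genes, of which 2 were called higher and 2 lower) spanned 93109 to 121714 TPM in WT and 82812 to 106657 TPM in KO. Summed cholangiocyte markers (8 genes, of which 3 were called higher and 1 lower) spanned 37.5 to 67.9 TPM in WT and 264 to 729 TPM in KO, and all 7 macrophage markers were called higher, with sums of 48.8 to 161 TPM and 218 to 432 TPM. Marker calls here use the deposited values, where 50.1% of all tested genes were called higher and 4.82% lower. Stellate cell and fibroblast markers (8 genes, 5 called higher) summed to 63.0 to 171 TPM in WT and 153 to 380 TPM in KO. The part of these cells in the results below was not tested, and in whole liver fewer cells of a type and less RNA per cell cannot be told apart. Kidney tubule markers, which would mark the other main site of Cyp4a expression, summed to at most 0.265 TPM in any library, and Slc12a1 and Aqp2 among them were at 0.

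The Cyp4a genes lie side by side on chromosome 4 and their transcripts are alike, which bears on how far single values can be trusted. In GENCODE release M21 (GRCm38) the protein-coding genes are Cyp4a12a at chr4:115299046-115332815, Cyp4a12b at chr4:115411624-115439034, Cyp4a10 at chr4:115518264-115533649, Cyp4a31 at chr4:115563649-115579015 and Cyp4a32 at chr4:115600969-115621602 on the plus strand, and Cyp4a14 at chr4:115486200-115496142 on the minus strand. Cyp4f15 (chr17:32685627-32703352, plus strand), Cyp4f14 (chr17:32905070-32917342, minus strand) and Cyp4f13 (chr17:32924688-32947402, minus strand) share a stretch of chromosome 17, and Cyp4v3 stands alone at chr8:45304944-45333216 on the minus strand. The coding sequences of Cyp4a12a and Cyp4a12b were 98.5% identical, with 23 differences in 1524 bases, and 35.8% of 100-base windows of Cyp4a12a occurred unchanged in Cyp4a12b. Cyp4a10 was 96.6% identical to Cyp4a31 and 97.2% identical to Cyp4a32, but 76.8% identical to Cyp4a14. How the authors assigned reads that fit several of these genes is not given in the sources used here, so the split within the Cyp4a12 pair and within Cyp4a10, Cyp4a31 and Cyp4a32 is uncertain. The following 60 coding bases of exon 6 show what separates the pairs, read from GRCm38 on the gene's strand, with capitals where a gene differs from its partner (Cyp4a12a against Cyp4a12b, 4 bases, and Cyp4a10 against Cyp4a14, 27 bases). They lie at chr4:115326628-115326687, chr4:115432881-115432940, chr4:115524725-115524784 and chr4:115492176-115492235 in the order printed.
Cyp4a12a: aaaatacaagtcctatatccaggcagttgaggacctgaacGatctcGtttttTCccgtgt
Cyp4a12b: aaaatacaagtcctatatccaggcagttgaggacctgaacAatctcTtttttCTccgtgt
Cyp4a10: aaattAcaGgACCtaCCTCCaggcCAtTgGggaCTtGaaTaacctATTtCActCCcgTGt
Cyp4a14: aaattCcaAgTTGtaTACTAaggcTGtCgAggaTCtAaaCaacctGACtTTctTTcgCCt

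The 10 genes together made up 1279 to 1682 TPM in the 6 WT livers and 557 to 730 TPM in the 6 KO livers, with no overlap between genotypes. WT males and WT females reached overlapping sums from different genes. Cyp4a12a and Cyp4a12b supplied 34.3% to 42.9% of the sum in WT males and 0.0178% to 0.0761% in WT females. Cyp4a10 and Cyp4a14 supplied 2.50% to 19.2% in WT males and 48.1% to 58.1% in WT females. In KO livers the sexes were closer: the Cyp4a12 pair gave 2.24% to 4.43% in males and 0.315% to 0.852% in females, and the Cyp4a10 and Cyp4a14 pair 24.2% to 24.9% and 24.5% to 35.1%. The Cyp4f genes and Cyp4v3, which gave 38.8% to 53.5% of the sum in WT livers, gave 61.4% to 73.7% in KO livers.

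**Figure D1:**
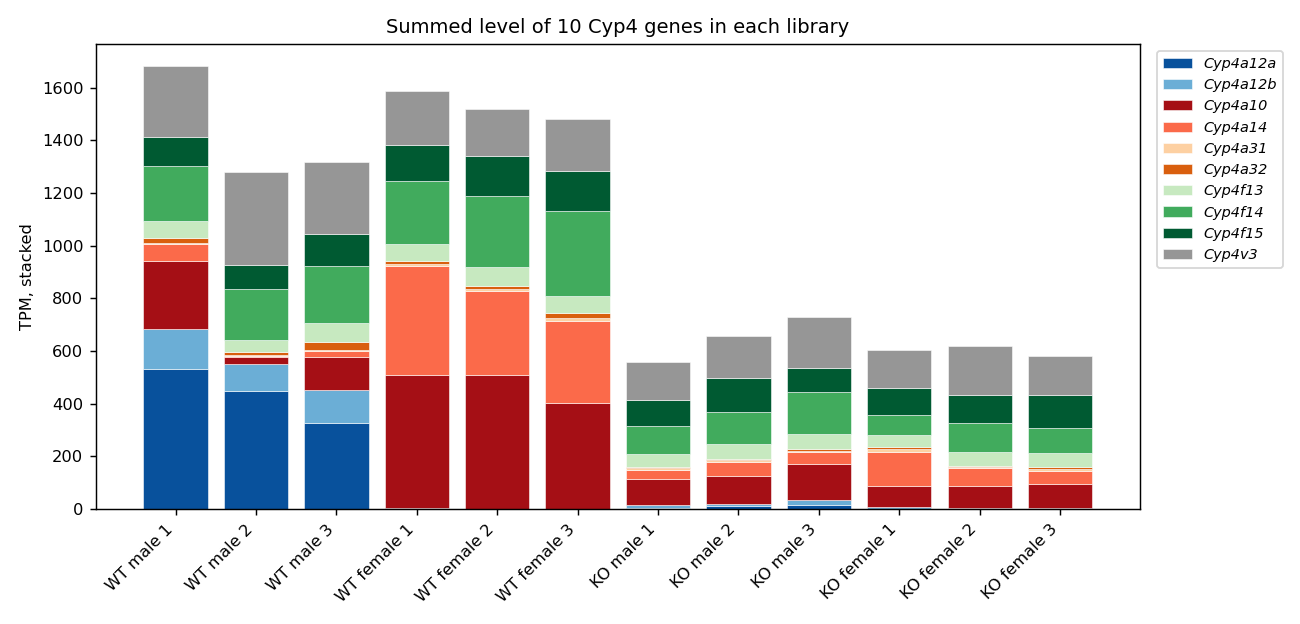
Stacked bars of TPM for the 10 genes in each of the 12 libraries, with 1 colour per gene and a linear axis from 0. The WT bars reach 1279 to 1682 TPM and the KO bars 557 to 730 TPM, and the blue Cyp4a12a and Cyp4a12b blocks are tall in the WT males alone.

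Cyp4a12a, the male arachidonic acid omega-hydroxylase, was the most abundant of the 10 genes in WT males and fell further in KO males than any other of the 10. Its level was 532, 446 and 327 TPM in WT males 1 to 3, and 4.30, 8.93 and 13.7 TPM in KO males 1 to 3. Females had 0.761, 0.117 and 0.235 TPM in WT and 0.934, 0.856 and 0.155 TPM in KO, which correspond to 19, 3 and 8 reads and to 26, 20 and 4 reads. All WT males were above all KO males, all KO males were above all females of either genotype, and the female groups overlapped. The mean fell from 435 ± 103 TPM in WT males to 8.99 ± 4.72 TPM in KO males (SD, n = 3 each), a ratio of 48.4 between the means. The log2 difference in males was -5.54 (SE 0.34, limma adjusted p = 1.43e-07) and -6.10 after rescaling. In females it was 0.26 (SE 0.34, limma adjusted p = 0.601).

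Cyp4a12b, the near copy of Cyp4a12a, fell in males as well, but was higher in KO than in WT females. Its level was 149, 103 and 125 TPM in WT males, 8.17, 10.4 and 18.6 TPM in KO males, 4.21, 1.99 and 1.68 TPM in KO females, and 0.445, 0.197 and 0.0297 TPM in WT females. None of these 4 groups overlapped another, in the order WT male, KO male, KO female, WT female. The log2 difference was -3.30 in males (SE 0.30, limma adjusted p = 4.19e-06, and -3.86 rescaled), with a ratio of 10.1 between the male means of 126 ± 23.2 and 12.4 ± 5.48 TPM (SD, n = 3 each). In females it was 1.52 in the other direction (SE 0.30, limma adjusted p = 0.00193, and 1.33 rescaled). That rise stands on low counts, 11, 5 and 1 reads in WT females against 116, 46 and 43 reads in KO females. With a pseudocount of 5 in place of 1 it was 0.53 with a limma adjusted p of 0.0633.

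The genotype effect on this pair differed between the sexes by a direct test. The male effect minus the female effect was -5.80 for Cyp4a12a (SE 0.48, limma adjusted p = 2.03e-05) and -4.82 for Cyp4a12b (SE 0.42, limma adjusted p = 3.05e-05). They were 2 of the 10 genes called in that interaction, against 0.912% of all tested genes. The latter share rests partly on WT male 3, since 112 genes were called with that library and 176 without it. Cyp4a12a and Cyp4a12b did not fall in step. Their TPM ratio was 2.61 to 4.34 in WT males, 0.527 to 0.857 in KO males and 0.0920 to 0.430 in KO females, so that Cyp4a12b was the higher of the pair in every KO liver. The ratio in WT females ran from 0.593 to 7.91 on the few reads given above. Reads shared by the near copies bear on each ratio, and their part was not tested.

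**Figure D2:**
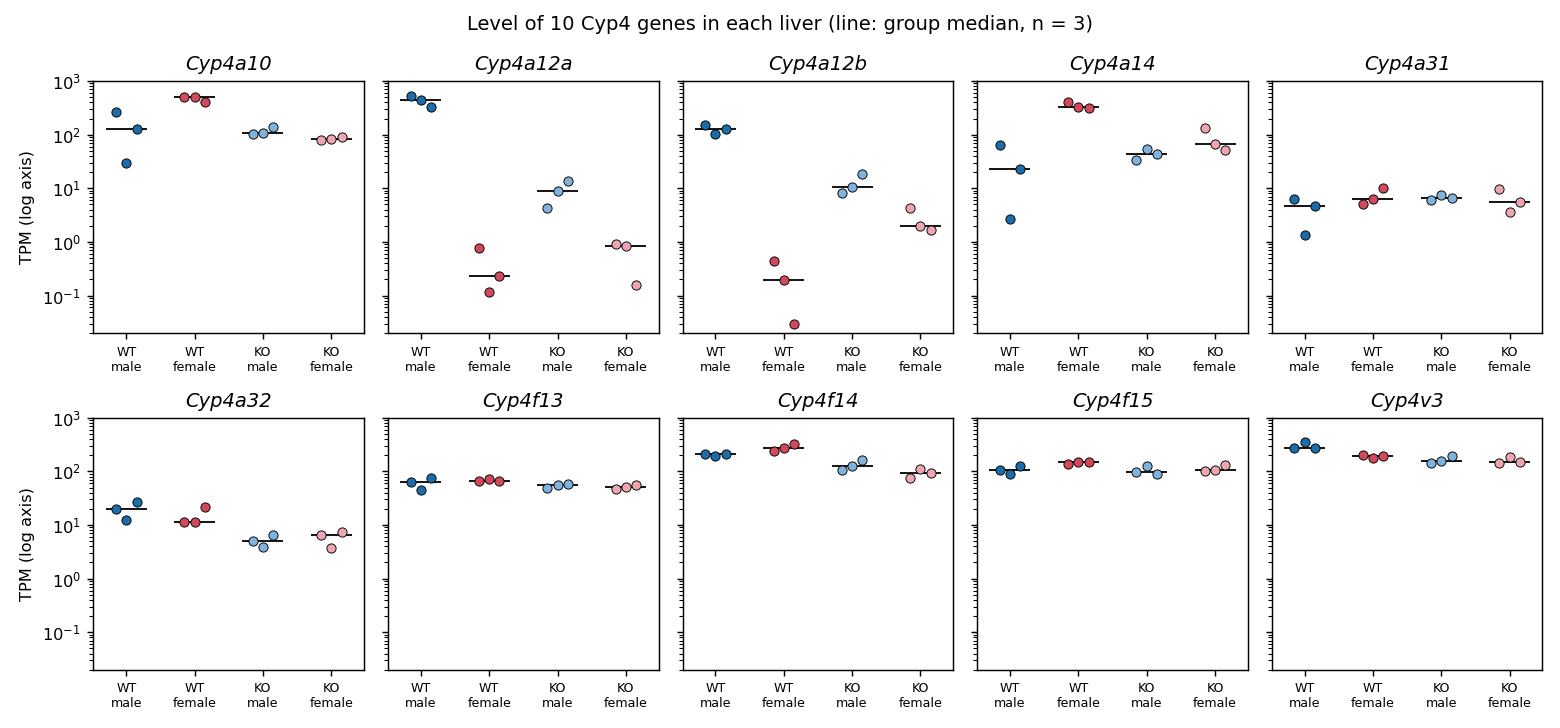
TPM of each of the 10 genes in each mouse, on a log axis common to all panels, in 4 groups of 3 mice with a line at the group median. Cyp4a12a and Cyp4a12b separate WT males from every other group, whereas Cyp4a10 and Cyp4a14 are highest in the WT females, at 401 to 509 and 312 to 414 TPM.

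Sex differences in the pair were smaller in KO livers. In WT livers males exceeded females by 8.31 for Cyp4a12a (SE 0.34, limma adjusted p = 4.73e-09) and by 6.69 for Cyp4a12b (SE 0.30, limma adjusted p = 1.01e-08), both on the log2 scale. With Cyp4v3 they were the 3 of 10 genes called higher in WT males, against 1.14% of all tested genes, and they were so after rescaling too, against 2.11%. The KO males still exceeded the KO females, by 2.52 for Cyp4a12a (SE 0.34, limma adjusted p = 0.0112) and 1.87 for Cyp4a12b (SE 0.30, limma adjusted p = 0.0415), where 0.0814% of all tested genes were called (10 genes, and 6 without KO male 2). These KO calls were not firm. Cyp4a12a missed the threshold without KO male 2 (adjusted p = 0.0853), KO male 3 (0.0649) or KO female 3 (0.0626), and Cyp4a12b missed it when any library but KO male 1 or KO female 1 was left out, at adjusted p of 0.0598 to 0.208. With a library left out the log2 difference was 2.18 or more for Cyp4a12a and 1.56 or more for Cyp4a12b.

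Cyp4a10, a PPAR-alpha target that hydroxylates medium-chain and long-chain fatty acids, had its highest level in WT females and fell in KO females to below the KO males. WT females had 509, 506 and 401 TPM and KO females 80.9, 84.7 and 90.7 TPM. WT males had 259, 29.2 and 126 TPM and KO males 101.2, 106 and 137 TPM. Female genotypes were fully apart, with a ratio of 5.53 between the means of 472 ± 61.4 and 85.4 ± 4.95 TPM (SD, n = 3 each), while the KO males lay inside the wide range of the WT males. All KO males were above all KO females. The log2 difference was -2.45 in females (SE 0.53, limma adjusted p = 0.00367, and -2.79 rescaled) and 0.20 in males (SE 0.53, limma adjusted p = 0.771, and -0.37 rescaled). The male value turned to -0.66 without WT male 2, the lowest WT male, and was 0.89 at most when another library was left out.

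Cyp4a14, the other PPAR-alpha target, was also highest in WT females, but lowest in WT males by its mean. WT females had 414, 322 and 312 TPM and KO females 131, 67.4 and 51.9 TPM. WT males had 63.4, 2.71 and 22.8 TPM and KO males 33.7, 53.5 and 44.4 TPM. All WT females were above every other liver, and the other 3 groups overlapped one another. The log2 difference in females was -2.15 (SE 0.73, limma adjusted p = 0.0382, and -2.50 rescaled), a ratio of 4.18 between means. This call was near the threshold and was lost without any 1 of WT females 1, 2 and 3, KO males 1 and 3 and KO females 2 and 3, at log2 differences of -2.23 to -1.87 and adjusted p of 0.0508 to 0.121. In males the difference was 1.31 (SE 0.73, limma adjusted p = 0.157, and 0.78 rescaled), and it ran from 0.17 without WT male 2 to 2.23 without WT male 1, where it passed the threshold (adjusted p = 0.0129).

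Male livers had less of both PPAR-alpha targets in WT but not by a call in KO. WT males were below WT females by -2.23 for Cyp4a10 (SE 0.53, limma adjusted p = 0.0296) and by -4.28 for Cyp4a14 (SE 0.73, limma adjusted p = 0.00457), with 4.60% of all tested genes called lower in WT males. That share came from 705 genes called in both directions, and 291 to 1698 were called when any 1 of the 6 WT libraries was left out, the extremes being without WT male 2 and without WT male 3. For Cyp4a10 the sex difference in WT was -1.37 without WT male 2 (adjusted p = 0.0121), and missed the threshold without WT female 1, 2 or 3 (adjusted p = 0.0613 to 0.102). The difference between KO males and KO females was 0.41 for Cyp4a10 (limma adjusted p = 0.909) and -0.82 for Cyp4a14 (limma adjusted p = 0.884).

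Whether the loss of Yap1 acted differently on Cyp4a10 and Cyp4a14 in the sexes was not settled by the interaction test. The male minus female effect was 2.65 for Cyp4a10 (SE 0.75, limma adjusted p = 0.221) and 3.46 for Cyp4a14 (SE 1.04, limma adjusted p = 0.264). Both passed the threshold without WT male 1, at 3.34 for Cyp4a10 (adjusted p = 0.0146) and 4.38 for Cyp4a14 (adjusted p = 0.0237), and Cyp4a10 also without WT male 2, at 1.78 (adjusted p = 0.0348). Leaving out a WT male thus changed both results. WT male 2 was the lowest of its group for 8 of the 10 genes, Cyp4a12a and Cyp4v3 apart, and its label carries a library number outside the run of the others. The ratio of Cyp4a10 to Cyp4a14 was 4.09 to 10.8 in WT males, 1.99 to 3.10 in KO males, 1.23 to 1.57 in WT females and 0.618 to 1.75 in KO females, so male livers had more Cyp4a10 per Cyp4a14 in both genotypes, with no overlap between the sexes.

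**Figure D3:**
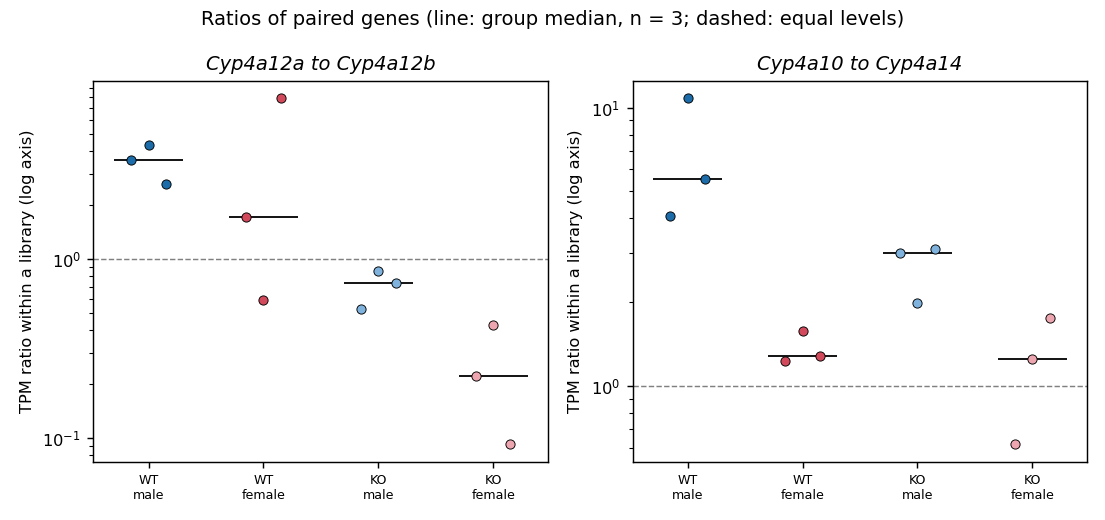
Ratio of TPM within each library for Cyp4a12a over Cyp4a12b (left) and Cyp4a10 over Cyp4a14 (right), on log axes, with a line at each group median (n = 3) and a dashed line at equal levels. All 6 KO livers lie under the dashed line on the left, at 0.0920 to 0.857, and the males lie above the females on the right.

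Cyp4a31 and Cyp4a32, close copies of Cyp4a10 with low levels, differed in their calls: Cyp4a32 fell and Cyp4a31 passed no test. Cyp4a32 was 19.5, 12.5 and 27.3 TPM in WT males, 11.3, 11.3 and 21.3 TPM in WT females, 5.07, 3.85 and 6.37 TPM in KO males and 6.48, 3.73 and 7.53 TPM in KO females. All 6 KO livers were below all 6 WT livers. The log2 difference with the sexes combined was -1.44 (SE 0.23, limma adjusted p = 0.000174, and -1.86 rescaled), and it was -1.72 in males (SE 0.32, limma adjusted p = 0.00103) and -1.16 in females (SE 0.32, limma adjusted p = 0.0133). The female call was lost without WT female 3 (-0.88, adjusted p = 0.0623) or KO female 2 (-0.91, adjusted p = 0.0557). Cyp4a31 was 1.36 to 10.1 TPM in WT and 3.68 to 9.88 TPM in KO livers, the groups overlapped throughout, and its difference with the sexes combined was 0.28 (SE 0.30, limma adjusted p = 0.441, and -0.10 rescaled).

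Cyp4f14, an omega-hydroxylase of leukotriene B4 and of tocopherols, was the one of the 3 Cyp4f genes among the 10 that passed the test with the sexes combined as deposited. It was 210, 195 and 215 TPM in WT males, 240, 271 and 323 TPM in WT females, 107, 124 and 161 TPM in KO males and 76.5, 111 and 92.0 TPM in KO females. As with Cyp4a32, the 6 KO livers lay below the 6 WT livers without overlap. The log2 difference was -1.12 with the sexes combined (SE 0.17, limma adjusted p = 0.000137, and -1.59 rescaled), -0.68 in males (SE 0.18, limma adjusted p = 0.00955, and -1.25 rescaled) and -1.57 in females (SE 0.18, limma adjusted p = 3.78e-05, and -1.92 rescaled). The difference between the male and female effects was 0.90 (SE 0.26, limma adjusted p = 0.221), and 0.67 rescaled, without passing the threshold on either scale.

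Cyp4v3, the mouse counterpart of the human gene that is mutated in Bietti crystalline dystrophy, fell in KO males, and in KO females on the rescaled values alone. WT males had 271, 355 and 274 TPM and KO males 144, 159 and 193.9 TPM, with no overlap. WT females had 203, 181 and 196.2 TPM and KO females 146, 184 and 148 TPM, which overlapped. The log2 difference was -0.85 in males (SE 0.16, limma adjusted p = 0.0011, and -1.43 rescaled) and -0.28 in females (SE 0.16, limma adjusted p = 0.194), and the rescaled female difference of -0.63 passed the threshold (limma adjusted p = 0.0223). WT males exceeded WT females by 0.62 (SE 0.16, limma adjusted p = 0.0408). This call for Cyp4v3 was lost without any 1 of WT males 1 and 2, WT females 1, 2 and 3, KO male 2 and KO female 3, at 0.49 to 0.69 and adjusted p of 0.0549 to 0.159.

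Cyp4f13 and Cyp4f15, the other members from the Cyp4f cluster, differed little between groups. Cyp4f13 was 44.6 to 74.1 TPM in WT and 46.2 to 57.1 TPM in KO livers, and Cyp4f15 was 90.0 to 151 TPM and 90.7 to 129 TPM. Genotypes overlapped in males for both genes, while all WT females were above all KO females. With the sexes combined the log2 difference was -0.27 for Cyp4f13 (SE 0.12, limma adjusted p = 0.075) and -0.20 for Cyp4f15 (SE 0.12, limma adjusted p = 0.18). Scaling decided both calls, since the rescaled differences were -0.73 (limma adjusted p = 0.000112) and -0.66 (limma adjusted p = 0.000938). Leaving out WT male 2 also brought Cyp4f13 past the threshold (-0.37, adjusted p = 0.00387), and leaving out KO male 2 did so for Cyp4f15 (-0.29, adjusted p = 0.0483).

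**Figure D4:**
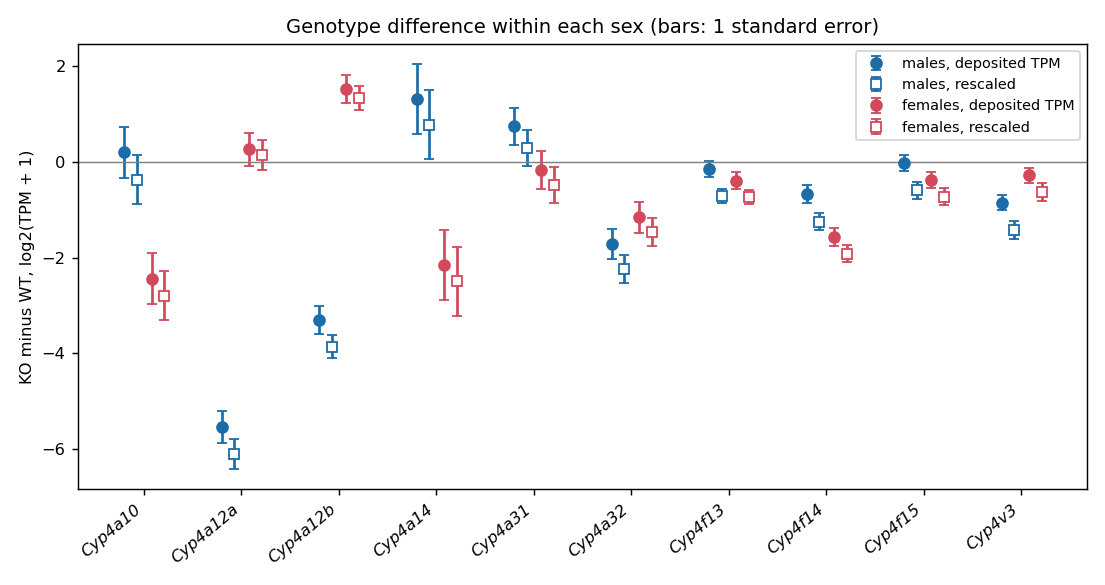
KO minus WT difference in log2(TPM + 1) for the 10 genes within males (blue) and within females (red), as deposited (circles) and after rescaling (squares), with bars of 1 standard error. Cyp4a12a and Cyp4a12b reach -5.54 and -3.30 in males, Cyp4a10 and Cyp4a14 reach -2.45 and -2.15 in females, and Cyp4a12b is the gene whose red points stand clearly above 0, at 1.52 and 1.33.

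Counted over the family, falls outnumbered rises. With the sexes combined, Cyp4a12a (-2.64, limma adjusted p = 0.0157), Cyp4a32, Cyp4f14 and Cyp4v3 (-0.57, limma adjusted p = 0.0031, and -1.03 rescaled) fell and the other 6 did not pass. That is 4 of 10, where 4.82% of all tested genes were called lower and 50.1% higher, and the median of the 10 was -0.73 against 0.35 over all tested genes. After rescaling, Cyp4a10, Cyp4f13 and Cyp4f15 joined them, making 7 of 10 lower with 18.7% of all genes called lower and 20.9% higher. In males 5 of 10 fell (2.81% of all genes were called lower there) and in females 4 of 10 fell and 1 rose (4.68% called lower and 29.1% higher). Rescaled, 7 of 10 fell in males (10.2% called lower) and 7 of 10 fell and 1 rose in females (10.9% called lower and 15.2% higher). The Cyp4a12a value for the sexes combined averages a large male and a small female difference. Cyp4a10 and Cyp4a14 passed the combined test without WT male 2, at -1.65 (adjusted p = 0.000631) and -1.12 (adjusted p = 0.0417), against -1.12 (limma adjusted p = 0.08, and -1.58 rescaled) and -0.42 (limma adjusted p = 0.623) with all libraries. In the authors' deposited table of KO against WT the log2 fold change was -7.06 for Cyp4a12a, -4.15 for Cyp4a12b, -2.08 for Cyp4a32, -1.66 for Cyp4f14, -1.54 for Cyp4a10 and -1.33 for Cyp4v3, and the false discovery rate was 0.66 for Cyp4a14, 0.86 for Cyp4a31 and at most 0.04 for the other 8. The authors' fold changes are not the log2(TPM + 1) differences used here, so the sizes cannot be compared directly. Of those 8, Cyp4a12b was at -0.89 here with the sexes combined (limma adjusted p = 0.289, and -1.26 rescaled) and passed on neither scale. Cyp4a10, Cyp4f13 and Cyp4f15 did not pass here as deposited with all libraries.

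Promoters are shown for Cyp4a32 and Cyp4f14, the members whose KO and WT livers did not overlap. The share of all tested genes without such overlap was not counted. Both members have a promoter in the RefSeq table (GRCm38.p6), shown as the 250 bases before a transcript start, on the gene's strand. The windows lie at chr4:115600688-115600937 for Cyp4a32 and chr17:32917343-32917592 for Cyp4f14. RefSeq promoters were matched by symbol for 5 of the 10 members (Cyp4a32, Cyp4f13, Cyp4f14, Cyp4f15 and Cyp4v3). The table holds 4 starts for Cyp4f14, and the window shown ends at the start that GENCODE gives for the gene. Capitals mark motif matches.
Cyp4a32: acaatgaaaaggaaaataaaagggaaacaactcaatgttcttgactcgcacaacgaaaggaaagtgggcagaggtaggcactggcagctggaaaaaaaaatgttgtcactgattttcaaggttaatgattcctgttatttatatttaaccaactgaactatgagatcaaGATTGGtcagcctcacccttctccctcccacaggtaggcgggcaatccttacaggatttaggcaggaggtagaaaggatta
Cyp4f14: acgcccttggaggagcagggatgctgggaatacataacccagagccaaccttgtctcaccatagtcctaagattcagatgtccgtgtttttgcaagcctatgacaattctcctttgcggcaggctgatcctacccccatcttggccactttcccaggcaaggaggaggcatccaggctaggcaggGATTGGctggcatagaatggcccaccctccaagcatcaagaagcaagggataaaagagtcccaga

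Both strands were searched for 4 motifs. CCAATC, the core of the CCAAT box, read as GATTGG on the gene's strand in both windows shown, was found in Cyp4a32 and Cyp4f14, in Cyp4f13 and in Cyp4f15, and in 14.6% of 32851 promoters of the same length. TTCNNNGAA, the STAT element, matched in Cyp4f13 and in 7.02% of promoters. The nuclear receptor half-site AGGTCA (14.0% of promoters) and its direct repeat AGGTCANAGGTCA (0.0335%), the kind of element PPAR-alpha uses, which contains that half-site, were not among the letters of these 5 members' windows. CCAATC was chosen after the sequences had been read, so its presence is a description.

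Ppara, which encodes the receptor, fell in both sexes. It was 22.4, 36.9 and 55.2 TPM in WT males, 31.8, 51.7 and 36.5 TPM in WT females, 12.5, 20.9 and 15.2 TPM in KO males and 10.6, 14.8 and 17.8 TPM in KO females, with no overlap between genotypes. The log2 difference was -1.27 with the sexes combined (SE 0.21, limma adjusted p = 0.000257, and -1.71 rescaled). Cyp4a10 and Cyp4a14 are set beside 32 other PPAR-alpha target genes. Of these, 9 fell and 5 rose with the sexes combined, and their median was -0.19, where 4.82% of all tested genes were called lower and 50.1% higher. After rescaling 20 fell and 4 rose (18.7% and 20.9% of all tested genes), and the median was -0.64 against -0.04 over all tested genes. In females 13 fell and 4 rose (4.68% and 29.1% of all tested genes), with a median of -0.43 beside -2.45 for Cyp4a10, and rescaled 21 fell and 4 rose (10.9% and 15.2%), with a median of -0.76. In males 4 fell and 6 rose, with a median of 0.00 beside 0.20 for Cyp4a10, where 2.81% of all tested genes were called lower and 43.3% higher. Rescaling turned this to 17 that fell and 3 that rose in males, with a median of -0.57 beside -0.37 for Cyp4a10, where 10.2% of all tested genes were called lower and 13.9% higher. The largest changes among them went in both directions: Acot1, an acyl-CoA thioesterase, fell by 2.22, whereas Cd36, a fatty acid uptake receptor, rose by 2.79 and Pdk4, a kinase that restrains pyruvate oxidation, rose by 2.26. Like Cyp4a10 and Cyp4a14, 7 of the 32 were called lower in WT males than in WT females (5 after rescaling), where 4.60% of all tested genes were called lower as deposited and 2.26% after rescaling.

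The enzymes that act with and after the omega-hydroxylases form a list of 18 partner genes. Of these, 5 fell (Adh4, Abcd3, Acsl1, Hsd17b4 and Ephx2) and 3 rose (Cyb5r3 and Crot among them) with the sexes combined, and their median was -0.03, beside 4.82% of all tested genes called lower and 50.1% higher. After rescaling 10 fell and 0 rose by limma (18.7% and 20.9% of all tested genes), and the median was -0.49. Acsl1, which activates long-chain fatty acids, was at -1.26 (-1.72 rescaled), Abcd3, a peroxisomal importer of dicarboxylic acids, at -0.79 (-1.25 rescaled) and Adh4, an alcohol dehydrogenase, at -0.51 (-0.97 rescaled), beside -1.12 (-1.59 rescaled) in Cyp4f14. Por, the reductase that supplies electrons to microsomal P450 enzymes, was 1.22 higher in KO males and -0.35 in KO females, the latter without passing the threshold, and after rescaling the male value was 0.65 and no longer passed (limma adjusted p = 0.248).

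Cyp4a12a and Cyp4a12b are compared with 16 other genes known to be higher in male mouse liver, of which 15 were tested. All 15 were higher in WT males, where 1.14% of all tested genes were called higher, and all 15 were so rescaled, where 2.11% were. The list was chosen with earlier results of these data known, so this count is a description and no test. The median of the 15 was 3.84 beside 8.31 for Cyp4a12a and 6.69 for Cyp4a12b. In KO against WT males 13 of the 15 fell and 1 rose, where 2.81% of all tested genes were called lower and 43.3% higher. Their median was -4.37, between the values of -5.54 for Cyp4a12a and -3.30 for Cyp4a12b. Rescaled, 14 fell and 0 rose in males, with a median of -4.94, where 10.2% of all tested genes were called lower and 13.9% higher. In females 8 of the 15 fell and 5 rose, beside 4.68% and 29.1% of all tested genes, and rescaled 9 fell and 4 rose, beside 10.9% and 15.2%. Cyp2d9 (2.05), like Cyp4a12b (1.52), was among those that fell in males and rose in females. The interaction was called for 11 of the 15 and for 0.912% of all tested genes. Rescaled, it was called for 12 of the 15 and for 103 of 12278 tested genes. Hsd3b5, a steroid dehydrogenase, Slco1a1, an organic anion carrier, and Serpina1e, a protease inhibitor, fell in both sexes, with log2 differences of -7.77, -6.92 and -7.04 in males and -3.53, -5.44 and -4.81 in females.

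Cyp4a10 and Cyp4a14 can be set beside 20 genes known to be higher in female mouse liver. All 20 were lower in WT males (19 after rescaling), where 4.60% of all tested genes were called lower (2.26% after rescaling). This list too was chosen with earlier results of these data known, so the count is a description and no test. The median of the 20 was -7.33, beside -2.23 for Cyp4a10 and -4.28 for Cyp4a14. In females 18 of the 20 fell in KO, with a median of -4.66 beside -2.45 and -2.15, where 4.68% of all tested genes were called lower. In males 8 of them rose, near the 43.3% of all tested genes called higher as deposited, and after rescaling 7 rose, where 13.9% of all tested genes were called higher. Of the genes named, Cyp3a41a was at -10.14, Cyp2c69 at -8.14 and Sult3a1 at -7.97 in females. Acot3, a PPAR-alpha target that is on both lists, fell by 3.67 in females and was 0.96 in males without passing the threshold.

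**Figure D5:**
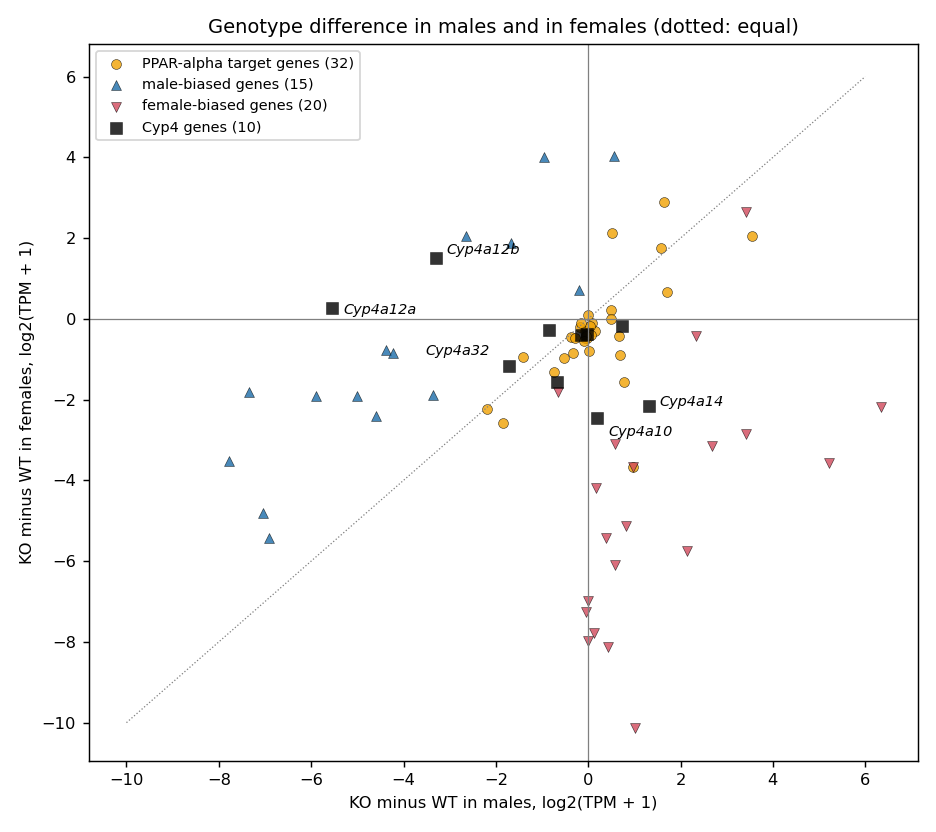
KO minus WT difference in log2(TPM + 1) in males (horizontal) and in females (vertical) for the 10 Cyp4 genes and 3 gene lists, with a dotted line where both are equal. Male-biased genes lie mostly to the left, down to -7.77 in males, and female-biased genes mostly low, down to -10.14 in females. Cyp4a12a and Cyp4a12b lie among the male-biased genes. Cyp4a10 and Cyp4a14, at -2.45 and -2.15 in females, lie there within the spread of the PPAR-alpha target genes and within that of the female-biased genes. The PPAR-alpha target genes reach -3.67 in females at Acot3, which is on both lists.

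Across the 12 livers, the genes whose log2 levels followed each of the 4 were listed by Pearson correlation, as a description of libraries that share group, sex and depth. Closest to Cyp4a10 were Acadl (0.946), Uqcrc2 (0.945), Atg3 (0.940), Naa80 (0.931) and Vegfa (0.922), above its correlation of 0.856 with Cyp4a14. Cyp4a14 was closest to Slc25a11 (0.971), H2-Q6 (0.961), Prdm9 (0.950), Echdc3 (0.946) and Zfp949 (0.931). WT male 2 was the lowest of the 12 libraries for all of these but Atg3. Acadl, a mitochondrial acyl-CoA dehydrogenase, had 88.0 TPM there against 162 and 161 TPM in the other WT males. Cyp4a12a was closest to Cyp4a12b (0.971) and then to Chpt1 (0.954), Nat8f5 (0.948), Capn8 (0.924), Cyp2d9 (0.923) and Selenbp2 (0.920). Closest to Cyp4a12b beside Cyp4a12a were Cyp2d9 (0.973), Scp2 (0.962), Nox4 (0.951), Chpt1 (0.948) and Alas2 (0.927). Alas2, the erythroid heme synthesis enzyme, had 114 to 121 TPM in WT males, 11.6 to 17.9 TPM in WT females and 25.1 to 40.9 TPM in the KO livers, which repeats the order of Cyp4a12b for WT but not the separation of the KO sexes.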

How the data were processed

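RNA of 12 whole livers (3 WT males, 3 WT females, 3 KO males, 3 KO females, grouped by sample title) was analysed from 1 table of TPM values deposited by the authors. The submitters' processing notes name edgeR and the build GRCm38 without a role, and the aligner, counter, annotation and use of strand are not given in the sources used here. The authors' fold change, log2 fold change and FDR p-value, per the file headers, are quoted once. Each of the 12 sample columns belongs to 1 mouse, and 0 remained unmatched.

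TPM were taken as log2(TPM + 1), and 12278 genes with a mean of at least 0.5 TPM went into limma 3.58.1 (R 4.3.3, eBayes with trend), two-sided, with Benjamini-Hochberg adjustment and a threshold of 0.05. KO was compared with WT over both sexes with sex as covariate. The comparisons within a sex, between sexes and the interaction came from 1 model of the 4 group means. Yap1 was tested by exact permutation within sex (400 arrangements). Nothing in the labels says more than that each library is a mouse, so p-values measure the spread between these samples. Values of low genes are whole multiples of what 1 read is worth, 0.0710 to 0.115 TPM for a gene of 1 kb, and at their GENCODE exon length 6 of the 10 genes, Cyp4a12a and Cyp4a12b among them, gave whole reads in each library within 0.02 of a read, whereas Cyp4a14, Cyp4a32, Cyp4f13 and Cyp4f15 did so at another length found by search. Genes that came out whole held 6167272 to 9889817 reads per library. The scripts were tested on simulated data. Motifs, coding identity (Biopython 1.88 alignment) and positions (25635 of 25676 identifiers matched) came from GENCODE and RefSeq tables.

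The 10 genes, the gene lists and the rule for named genes were chosen with earlier results of these data known. The rule named the 10 genes, Yap1, Ppara, up to 3 genes per list with the largest called change with the sexes combined, and the 5 genes closest to each of 4 members. Acot3, Por and Alas2 were singled out after their values were seen. Alternatives changed the scaling, pseudocount, low-value filter, moderation, samples in the fit and a covariate for 2 animal numbers below 100, and left out each library in turn.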

Additional observations from a re-analysis of the deposited data

Results flagged for a closer look

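These 2 results stood out because the effect of genotype differed between the sexes by a direct test. For Cyp4a12a the male effect minus the female effect was -5.80 on the log2 scale (limma adjusted p = 2.03e-05), and all 3 KO males were below all 3 WT males while the females overlapped. For Cyp4a12b it was -4.82 (limma adjusted p = 3.05e-05), with all 3 KO males below all WT males and all 3 KO females above all WT females. Both were called under each of the 20 alternatives tried, at -6.37 to -5.08 for Cyp4a12a and -6.60 to -3.47 for Cyp4a12b.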

How the results depend on the processing

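No paired analysis was possible because replicates were numbered in order of deposition and pair no mice across groups. Of 60 member results, 23 were called, and none of these reversed under any of up to 21 alternatives. The 15 that kept their call throughout include each fall of Cyp4a12a, Cyp4f14 and Cyp4v3 with the sexes combined or in males and that of Cyp4a10 in females. Outside the libraries left out, genotype calls in females were lost for Cyp4a14 with a pseudocount of 0.1 or no low-value filter, and for Cyp4a12b with a pseudocount of 5. Calls were also lost for the sex difference in WT of Cyp4a10, Cyp4a14 and Cyp4v3 under 1 to 4 alternatives each, and for that of both Cyp4a12 genes in KO livers under 4 and 6 alternatives. Rescaling gave 2959 called genes in males (5663 as deposited). The sex comparison in WT called 409 genes with the animal-number covariate and 399 with only the 2 groups compared (705 otherwise), and 291 to 1698 with a library left out. In KO livers leaving out a library gave 6 to 10 genes, and for the interaction 75 to 176. Sign changes touched only results that were not called. They were -0.10 for Cyp4a31 with the sexes combined and -0.37 for Cyp4a10 in males after rescaling, 0.0510 for Cyp4f13 between WT sexes after rescaling, and 0.0243 for Cyp4a32 between KO sexes with the covariate. With a library left out the ranges were -0.66 to 0.89 for Cyp4a10, -0.35 to 0.00701 for Cyp4f13 and -0.17 to 0.0887 for Cyp4f15 in males, -0.50 to 0.11 for Cyp4a31 in females, and -0.33 to 0.0326 for Cyp4f13 between WT sexes. Between KO sexes they were -0.14 to 0.47 for Cyp4a31, -0.41 to 0.0152 for Cyp4a32, -0.00068 to 0.13 for Cyp4f13 and -0.0680 to 0.16 for Cyp4v3. The cause of these changes was not tested, beyond fewer samples in the fits. Depth limits Cyp4a12a and Cyp4a12b in females, at 1 to 116 reads per library.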

Other observations

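The table holds 10 further Cyp4 genes, of which 4 were tested. Cyp4f16, Cyp4f17 and Cyp4f18 rose and Cyp4b1 fell with the sexes combined, where 50.1% of all tested genes were called higher. After rescaling Cyp4f17 was at 0.17 and no longer passed (limma adjusted p = 0.508). Cyp4f16 was 1.24 to 4.02 TPM in WT and 12.9 to 16.1 TPM in KO livers (log2 difference 2.27, limma adjusted p = 4.04e-08, and 1.90 rescaled). Cyp4f18, a leukotriene B4 hydroxylase of neutrophils, was 0.0899 to 1.20 TPM in WT and 3.57 to 7.19 TPM in KO livers (2.10, limma adjusted p = 1.87e-07). Neutrophil markers (6 genes, 3 tested and called higher) summed to 0.449 to 18.9 TPM in WT and 11.6 to 45.5 TPM in KO livers, and their part in Cyp4f18 was not tested. Cyp4b1 was 3.65 to 8.97 TPM in WT and 0.861 to 4.42 TPM in KO livers (-1.06, limma adjusted p = 0.0072). Cyp4a29, Cyp4a30b, Cyp4f37 and Cyp4f40 were listed at 0 in every library.

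Regulators of sex-dependent liver genes were described for the same livers as Cyp4a12a and Cyp4a12b. Of 16 such genes 3 fell and 5 rose with the sexes combined, where 4.82% of all tested genes were called lower and 50.1% higher. After rescaling 5 fell and 1 rose (Socs3), where 18.7% were called lower and 20.9% higher. In females 8 fell and 3 rose, beside 4.68% and 29.1% of all tested genes, and rescaled 8 fell and 1 rose, beside 10.9% and 15.2%. In males 2 fell and 6 rose, beside 2.81% and 43.3%, and rescaled 3 fell and 2 rose, beside 10.2% and 13.9%. The interaction of genotype and sex was called for 1 of the 16, the prolactin receptor gene Prlr, on both scales. It was called for 0.912% of all tested genes as deposited and for 103 of 12278 rescaled. Ghr, the growth hormone receptor, was 165 to 232 TPM in WT and 84.1 to 115 TPM in KO livers (log2 difference -1.06, limma adjusted p = 8.06e-06). Socs3, an inhibitor of cytokine signalling, was 2.95 to 16.3 TPM in WT and 24.6 to 113 TPM in KO livers (2.68, limma adjusted p = 2.93e-05).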
